A study of Mus musculus with 10 samples.

Results

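Messenger RNA for the receptors of interleukins, interferons and colony-stimulating factors (CSF) was examined in 3 endothelial populations of untreated wild-type C57BL/6 mice of 6 to 8 weeks of age. The members were every row of the count table whose symbol begins with Il, a number and r, apart from Il1rn, which encodes a secreted antagonist, together with Il6st, Lifr, Osmr, Ifnar1, Ifnar2, Ifngr1, Ifngr2, Csf1r, Csf2ra, Csf2rb and Csf3r. This rule took 52 of 23284 rows and used no measured value. Lymph node lymphatic endothelium (LN-LEC) had 4 libraries, and lymph node blood endothelium (LN-BEC) and lymphatic endothelium from the diaphragm (D-LEC) had 3 libraries each. No allele, transgene or agent was applied in any group. The lymph node cells came from pooled mesenteric, cervical, brachial, axillary and inguinal nodes, and each library was a pool of cells from several mice, so that the spread between libraries describes pools and not single animals. In all 3 populations cells bearing CD45 were depleted with beads, and CD31-positive cells were then sorted by podoplanin (PDPN), which is high on LEC and absent or low on BEC.

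The libraries held 22429940 to 48906070 counted fragments, and the members took 0.160 to 0.561% of them. A floor of 3 counts corresponded to 0.0613 to 0.134 CPM (counts scaled to the library total), and covers counting error only. The labelled cell types were checked against their markers. The summed normalized count of Lyve1, Pdpn, Prox1, Reln and Flt4 was 94668 to 119450 in LN-LEC, 387239 to 415551 in D-LEC and 2891 to 7955 in LN-BEC, where library 3 was highest. The sum of Nrp1, Flt1, Vwf and Notch4 was 69497 to 72713 in LN-BEC, 818 to 1374 in LN-LEC and 449.9 to 633 in D-LEC. The sum of 5 leukocyte markers (Ptprc, which encodes CD45, Coro1a, Rac2, Laptm5 and Cd53) was 1066 to 1660.3 in LN-LEC and 1229 to 1517 in LN-BEC, against 24.8 to 81.99 in D-LEC; Ptprc alone had means of 40.3, 285 and 14.9 in this order. LN-LEC library 4 and LN-BEC library 3 stood apart from the rest of their populations, with a chi-square per gene of 124 to 162 and 325 to 405 against the others of the same population, which differed among themselves by 10.8 to 19.5 in LN-LEC and 27.6 in LN-BEC. In bulk libraries, fewer cells of a type and less RNA per cell cannot be told apart.

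Cytokine receptors are assembled from subunits, and a response usually needs all chains of a complex, although some chains can also act in soluble form or from a neighbouring cell, as the IL-6 and IL-15 receptor alpha chains do. Many complexes join a chain that is private to 1 cytokine with a chain shared by a family: the common gamma chain (Il2rg), the common beta chain (Csf2rb), gp130 (Il6st), the IL-1 receptor accessory protein (Il1rap) or IL-10 receptor beta (Il10rb). The class I and class II receptors pass the signal on through Janus kinases and STAT proteins, while receptors for IL-1, IL-18 and IL-33 use the adaptor MyD88 and the IL-17 receptors use Act1. In lymph nodes, endothelial cells lie among lymphocytes and myeloid cells that make many of these ligands, and interferon gamma, IL-1 and members of the IL-6 family are known regulators of endothelial adhesion and antigen presentation.

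The class I receptors share a signature, the WSXWS box, in which a tryptophan and a serine stand on both sides of 1 free residue. A search of the longest coding sequence of each gene, in frame and on the coding strand, found the codons of this box in 18 of 52 members and in 71 of 22594 annotated genes (0.314%). The box is printed for the class I members whose RNA levels are described in detail, because these letters are what the chains have in common. All lie in coding exons of the mm9 annotation, are written 5′ to 3′ on the gene's strand, and have the tryptophan and serine codons in capitals with the free codon in lower case.
Il2rg, chrX:98461554-98461568, minus strand: TGGAGTaaaTGGAGC
Il21r, chr7:132772512-132772526, plus strand: TGGAGTgagTGGAGT
Il4ra, chr7:132715068-132715082, plus strand: TGGAGTgagTGGAGT
Il13ra1, chrX:33689076-33689090, plus strand: TGGAGTgatTGGAGT
Il13ra2, chrX:143822776-143822790, minus strand: TGGAGCgaaTGGAGT
Csf2rb, chr15:78175946-78175960, plus strand: TGGAGCaagTGGAGC
Il6st, chr13:113280805-113280819, plus strand: TGGAGTgacTGGAGT
Lifr, chr15:7117024-7117038, plus strand: TGGAGTgacTGGAGC
Lifr, chr15:7127549-7127563, plus strand: TGGAGCaggTGGAGT
Il6ra, chr3:89689852-89689866, minus strand: TGGAGCgaaTGGTCC
Il11ra1, chr4:41714432-41714446, plus strand: TGGAGCgccTGGAGC
Il21r and Il4ra, which neighbour each other on chromosome 7, carried the same 15 bases. Il6ra was the only one of the members shown here with a TCC codon for the last serine. Lifr carried the box 2 times. No such codons were found in the longest coding sequence of Osmr, Il27ra, Il3ra or Csf2ra, which says only that these letters are not in that reading frame.

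Of the 52 members, 48 reached a mean normalized count of 1 in at least 1 population and were tested among 15371 genes. A normalized count is a fragment count divided by the library's size factor and compares populations within 1 gene. Il20ra, Il11ra2 and Il1rapl2 had no count in any library, and Il9r had 1 count in each of 2 libraries; these 4 were not tested. All 100-base exon windows of Il11ra2 have a second copy in the genome, where reads were not counted. All libraries of 1 population lay above all libraries of the other for 33 members in LN-LEC against D-LEC, where the background over all genes tested was 50%, for 34 in LN-LEC against LN-BEC (background 44.9%) and for 36 in LN-BEC against D-LEC (background 56%). Log2 fold changes are given with their standard error and come from edgeR's quasi-likelihood test, with p-values adjusted by the Benjamini-Hochberg method over all genes tested and an adjusted p under 0.05 taken as a call. The members that passed the filter include some that passed through the population where they were high, so that the counts describe and do not test the group.

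LN-LEC against D-LEC asks how lymphatic endothelium of a lymph node differs from that of a tissue. In this comparison 33 members were called (background 45.7%), with 27 higher in LN-LEC, where the background was 24%, and 6 higher in D-LEC, where it was 21.7%. A difference of at least 5-fold was met by 13 members (background 12.1%), 11 of them higher in LN-LEC (background 8.13%), and Il6ra and Il22ra1 were the 2 higher in D-LEC (background 4.01%). The median log2 fold change of the 48 members was 1.33 (1.11 with groups of no count set at 3 counts, which alters the median of LN-BEC against D-LEC to 1.05), beside 0.025 over all genes tested. LN-LEC against LN-BEC compares lymphatic and blood endothelium of 1 organ. Here 31 members were called (background 38.2%), 14 higher in LN-LEC (background 19.8%) and 17 higher in LN-BEC (background 18.4%), and the median was -0.19 beside -0.0082 over all genes. At 5-fold there were 12 (background 9.82%), of which 4 were higher in LN-LEC (background 4.48%) and 8 in LN-BEC (background 5.34%). The count of 8 was 5 without LN-LEC library 4 and 5 without LN-BEC library 1. In LN-BEC against D-LEC 37 members were called (background 48%), 31 higher in LN-BEC (background 25.6%) and 6 higher in D-LEC (background 22.4%), of which 19 and 3 met 5-fold (background 10.4% and 4.83%, or 15.2% for the 22 together), with a median of 1.17 beside 0.046. The comparisons share libraries, and the values of each member are therefore given side by side. Without LN-LEC library 4 and LN-BEC library 3 together, 32, 29 and 38 members were called in the 3 comparisons, in the order given here. Il1rap, Il12rb2, Il17rb, Il17re and Il23r were called in none of the 3.

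**Figure D1:**
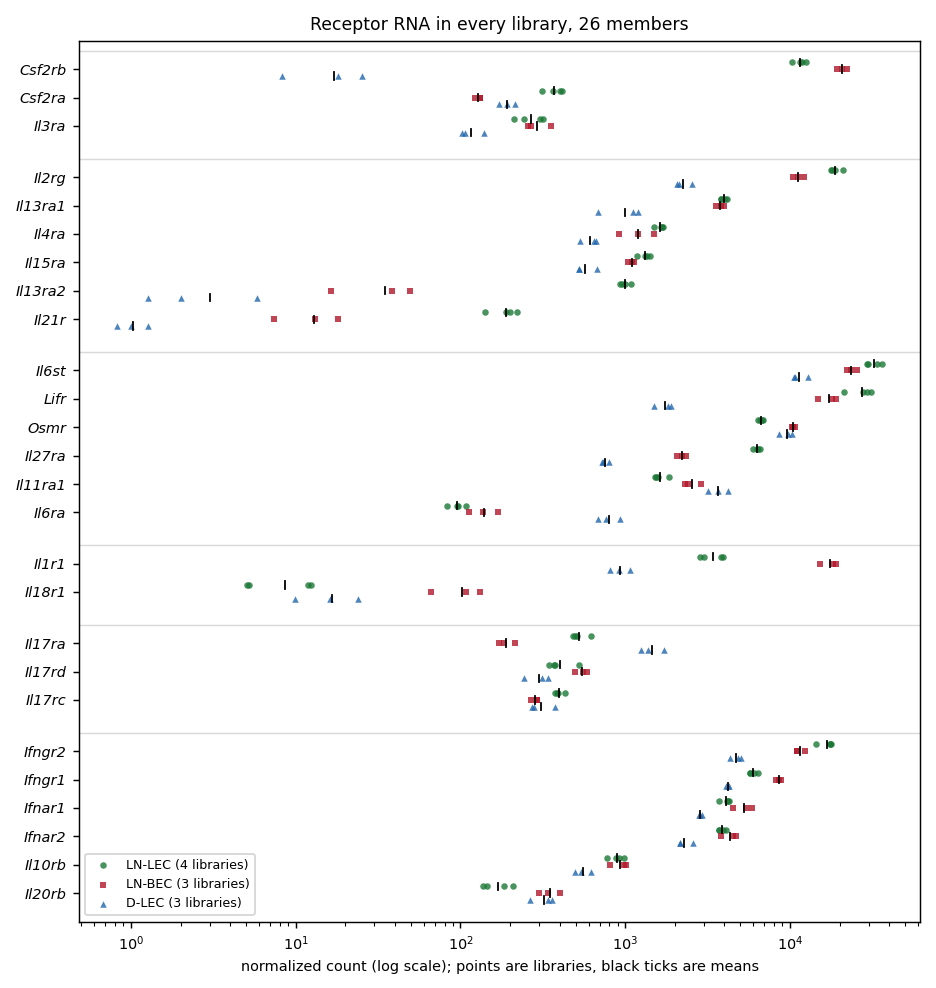
Normalized counts (log scale) of the 26 members that were called in at least 1 comparison and reached a mean of 100 in at least 1 population, by receptor family. Each point is 1 library of LN-LEC (circles), LN-BEC (squares) or D-LEC (triangles), and black ticks are means; Csf2rb spans from 8.26 in D-LEC to 22195 in LN-BEC, while the 3 populations lie close together for Osmr, Il17rc and Ifnar1.

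The common gamma chain was the most abundant member per length in both lymph node populations. Of 9 tested members of its family, which here includes the IL-13 receptors, 6 were higher and 0 lower in LN-LEC than D-LEC (background 24 and 21.7%), 5 were higher and 3 lower in LN-LEC than LN-BEC (background 19.8 and 18.4%), and 9 were higher and 0 lower in LN-BEC than D-LEC (background 25.6 and 22.4%). Il2rg encodes this chain, which is shared by the receptors for IL-2, IL-4, IL-7, IL-9, IL-15 and IL-21 and is best known from lymphocytes. Its normalized counts were 18684, 18055, 20893 and 17835 in the LN-LEC libraries, 10453, 12190.3 and 11139 in those of LN-BEC and 2538, 2116 and 2058 in those of D-LEC, so that the populations did not overlap and D-LEC was lowest. In FPKM, which divides by exon length and allows comparison between genes, Il2rg stood at 402 ± 40.6 (SD, n = 4) in LN-LEC, 206 ± 25.5 (SD, n = 3) for LN-BEC and 46.5 ± 5.94 (SD, n = 3) in D-LEC. The log2 fold change was 3.10 ± 0.11 (adjusted p = 7.35e-11) in LN-LEC against D-LEC, 0.76 ± 0.099 (adjusted p = 2.75e-05) in LN-LEC against LN-BEC and 2.34 ± 0.11 (adjusted p = 7.89e-10) in LN-BEC against D-LEC. The 5 leukocyte markers were all called higher in both lymph node populations than D-LEC as well, with a median log2 fold change of 3.33 for LN-LEC and 4.90 for LN-BEC. Cd53 had the highest mean of them, at 1012 normalized counts in LN-LEC and 386 in LN-BEC. The part of leukocytes in the lymph node levels of Il2rg and of the other members was not tested.

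Il21r, the private chain of the IL-21 receptor, was expressed in LN-LEC and was near the floor in D-LEC. It had 141, 219.6, 189 and 201 normalized counts in the LN-LEC libraries, 13.1, 18.2 and 7.35 in LN-BEC and 1.26, 1.002 and 0.826 in D-LEC. Each D-LEC library held 1 fragment of Il21r. Pooled over libraries, LN-LEC held 769 fragments against 3 in D-LEC, a ratio of CPM of 193 with a 95% counting interval of 65.9 to 939. Against LN-BEC the log2 fold change was 3.85 ± 0.32 (adjusted p = 3.44e-07), and LN-BEC was called higher than D-LEC (adjusted p = 8.35e-05). Il13ra2 encodes a high-affinity IL-13 receptor with a short cytoplasmic tail, often described as a decoy. It had the largest difference between LN-LEC and LN-BEC among the members with a mean of at least 100, with 933, 1003, 1084 and 959 in LN-LEC, 38.5, 16.4 and 49.4 for LN-BEC and 1.26, 2.004 and 5.78 in D-LEC. The log2 fold changes of Il13ra2 were 4.87 ± 0.28 (adjusted p = 3.91e-08) against LN-BEC and 8.20 ± 0.39 (adjusted p = 4.97e-09) against D-LEC, and its FPKM in LN-LEC was 22.3 ± 2.098 (SD, n = 4). No library of LN-BEC or D-LEC reached the LN-LEC range of either gene.

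The other chains of the IL-4, IL-13 and IL-15 receptors differed less. Il13ra1, which pairs with Il4ra in the receptor for IL-4 and IL-13, had 4153, 3830.0, 4056 and 3821 in the LN-LEC libraries, 3824, 3989 and 3541 in those of LN-BEC and 681, 1203 and 1113 in those of D-LEC. LN-LEC and LN-BEC overlapped, with a log2 fold change of 0.083 ± 0.15 (adjusted p = 0.715), and both were higher than D-LEC, by 2.004 ± 0.16 (adjusted p = 6.21e-07) and 1.92 ± 0.17 (adjusted p = 1.06e-06). Il4ra, the chain that binds IL-4, had 1664, 1645, 1705 and 1499 in the LN-LEC libraries, 1191, 914 and 1486 in those of LN-BEC and 528, 661 and 644 in those of D-LEC. The LN-LEC libraries lay above those of LN-BEC, by 0.46 ± 0.14 log2 units (adjusted p = 0.019), a call that was lost without LN-BEC library 2 (adjusted p = 0.0785), and above D-LEC by 1.43 ± 0.15 log2 units (adjusted p = 2.76e-06). LN-BEC was above D-LEC by 0.97 ± 0.15 log2 units (adjusted p = 0.000132). Il15ra, which presents IL-15 to neighbouring cells, had 1321, 1413, 1363 and 1184 in the LN-LEC libraries, 1104, 1134 and 1043 in those of LN-BEC and 526, 525 and 669 in those of D-LEC. It was higher in LN-LEC than D-LEC by 1.22 ± 0.11 log2 units (adjusted p = 6.12e-07) and in LN-BEC than D-LEC by 0.93 ± 0.11 log2 units (adjusted p = 1.13e-05). For LN-LEC against LN-BEC the log2 fold change was 0.29 ± 0.10 (adjusted p = 0.0443), and this call held in 9 of 18 alternative settings and was lost on leaving out any of LN-LEC libraries 1 to 3 or any LN-BEC library (adjusted p up to 0.142), or LN-LEC library 4 and LN-BEC library 3 together (adjusted p = 0.0645).

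The remaining gamma chain partners were scarce in every population, and where detected they were highest in LN-BEC. Il7r, the IL-7 receptor, had 93.7, 91.7 and 51.5 normalized counts in LN-BEC, 0 to 8.89 in LN-LEC and 0.826 to 7.57 in D-LEC, with a log2 fold change of -4.23 ± 0.65 (adjusted p = 0.000129) in LN-LEC against LN-BEC. Il2ra, the alpha chain of the IL-2 receptor, had 59.5, 43.2 and 55.7 in LN-BEC and at most 8.89 in any other library (-3.59 ± 0.54 log2 units, adjusted p = 0.000109 for LN-LEC against LN-BEC). Il2rb, the signalling beta chain for IL-2 and IL-15, stayed below 10 normalized counts in all 10 libraries. No library of another population reached the LN-BEC range of these 3 genes. Of 7 T cell markers, 5 (Cd3d, Cd3e, Cd3g, Cd8a and Cd8b1) were also called higher in LN-BEC than LN-LEC, Lck was called higher in LN-LEC, and Cd4 was not called. None was at 0 in a population, but 4 of the 7 had a mean of at most 10 in LN-LEC and 6 in D-LEC, against 0 in LN-BEC. The median log2 fold change of the 7 was -3.06 in LN-LEC against LN-BEC. In LN-BEC their summed level was 440.3, 566 and 294 in libraries 1 to 3, against 258 to 283 in LN-LEC and 109.9 to 159 in D-LEC. Cd3e had a mean of 109 in LN-BEC, 10.7 in LN-LEC and 6.58 in D-LEC. The 5 B cell markers summed to between 570.3 and 851, between 337 and 485, and between 13.2 and 40.4 in LN-BEC, LN-LEC and D-LEC, in this order. Of these 5, 1, 2 and 5 had a mean of at most 10 in the same order. The part of lymphocytes in the LN-BEC levels of Il7r, Il2ra and Il2rb was not tested.

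**Figure D2:**
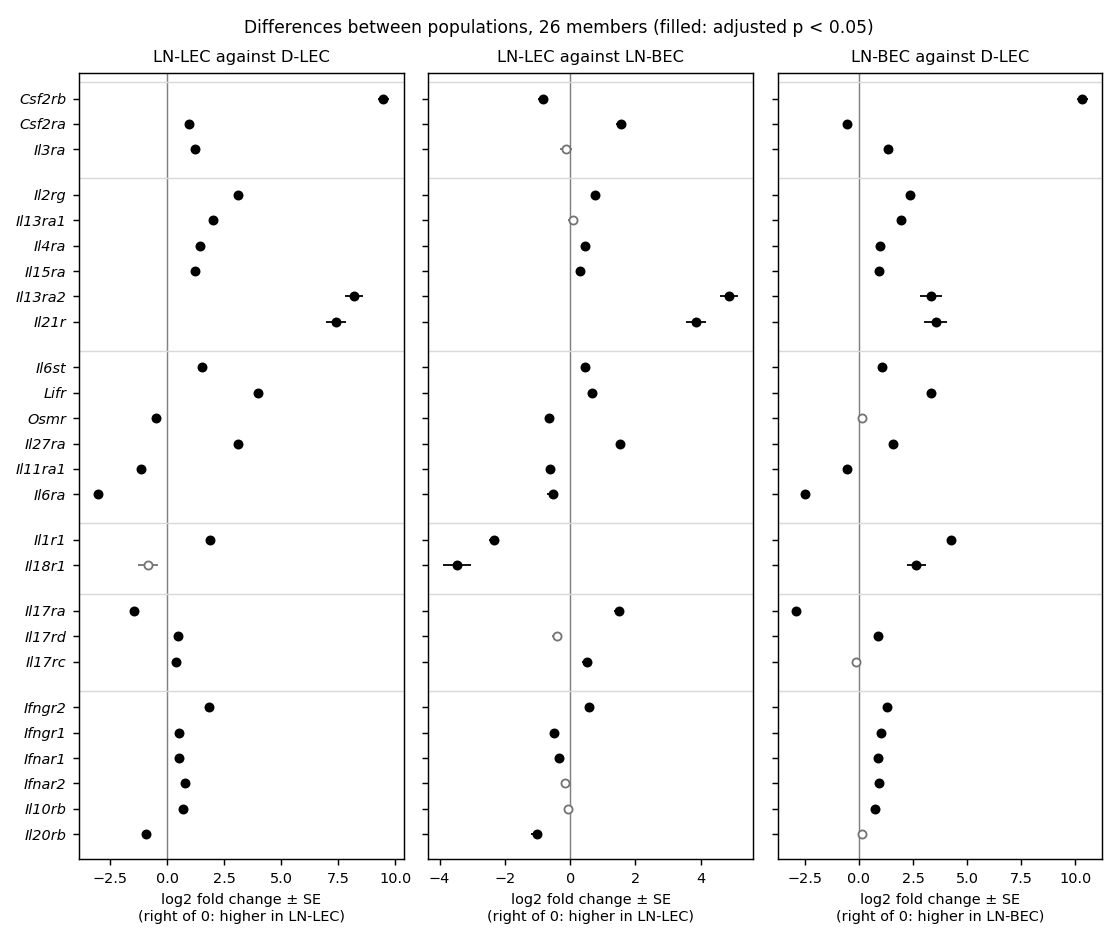
Log2 fold change with standard error of the same 26 members in LN-LEC against D-LEC, LN-LEC against LN-BEC and LN-BEC against D-LEC; filled points are called and open points are not. In the left panel Csf2rb, at 9.48, and Il13ra2, at 8.20, lie farthest to the right, followed by Il21r, whose D-LEC libraries held 1 fragment each, and Il6ra farthest to the left, at -3.04.

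The common beta chain separated lymph node from diaphragm more sharply than any other member. Csf2rb encodes the chain that signals for GM-CSF, IL-3 and IL-5. It had 11868, 11438, 12592 and 10240.1 normalized counts in LN-LEC and 20731, 22195 and 19199.9 in LN-BEC, against 25.2, 18.03 and 8.26 in D-LEC, which were 20, 18 and 10 fragments. No D-LEC library came near the lymph node range. The log2 fold changes were 9.48 ± 0.25 (adjusted p = 1.77e-11) for LN-LEC and 10.31 ± 0.26 (adjusted p = 1.42e-11) for LN-BEC against D-LEC. LN-LEC was lower than LN-BEC, with a log2 fold change of -0.83 ± 0.15 (adjusted p = 0.00057). The gene lies at chr15:78156420-78181431 of mm9, and 7.73% of its 100-base exon windows have a second copy elsewhere in the genome, where reads were not counted. Csf2rb2, a neighbouring paralog that serves IL-3 in mice and is no member by the rule, had means of 22339 ± 2227 (SD, n = 4), 17089.8 ± 2158 (SD, n = 3) and 18.1 ± 17.6 (SD, n = 3) for LN-LEC, for LN-BEC and for D-LEC. Read pairs that map to both paralogs were not counted, so that both levels can miss fragments where their sequence is identical.

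The alpha chains that give the complex its cytokine followed other patterns. Csf2ra, which binds GM-CSF, had 363, 314, 399 and 412 in the LN-LEC libraries, 131, 123 and 131 in those of LN-BEC and 213, 192 and 171 in those of D-LEC. The 3 populations did not overlap, and LN-BEC was lowest, with log2 fold changes of 1.55 ± 0.15 (adjusted p = 1.23e-06) for LN-LEC against LN-BEC, 0.98 ± 0.14 (adjusted p = 6.87e-05) for LN-LEC against D-LEC and -0.57 ± 0.15 (adjusted p = 0.007) for LN-BEC against D-LEC. Il3ra, which binds IL-3, had 303, 244, 317 and 212 in the LN-LEC libraries, 266, 355 and 258 in those of LN-BEC and 102, 106 and 139 in those of D-LEC. LN-LEC and LN-BEC overlapped, with -0.11 ± 0.18 log2 units (adjusted p = 0.67), and both lay above D-LEC, by 1.23 ± 0.20 log2 units (adjusted p = 0.000163) and 1.34 ± 0.21 log2 units (adjusted p = 0.000102). Il5ra, which binds IL-5, had between 0 and 3.81 normalized counts in LN-LEC, 6.05 to 11.4 for LN-BEC and 0 to 1.26 in D-LEC, and was called lower in LN-LEC than LN-BEC (adjusted p = 0.0317), a call held in 11 of 17 alternative settings. Per length, D-LEC held both alpha chains above the beta chain, at 3.48 ± 0.397 FPKM for Csf2ra and 2.78 ± 0.504 for Il3ra against 0.121 ± 0.0606 for Csf2rb (SD, n = 3). In LN-LEC the order was the opposite, with Csf2rb at 83.3 ± 9.76 FPKM, Csf2ra at 6.89 ± 0.721 and Il3ra at 6.65 ± 1.38 (SD, n = 4).

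Of 7 tested members of the gp130 family, 4 (Il6st, Lifr, Il27ra and Il31ra) were higher and 3 (Il6ra, Il11ra1 and Osmr) lower in LN-LEC than D-LEC (background 24 and 21.7%), 3 were higher and 4 lower in LN-LEC than LN-BEC (background 19.8 and 18.4%), and 4 were higher and 2 lower in LN-BEC than D-LEC (background 25.6 and 22.4%). Il6st, which encodes gp130 and serves IL-6, IL-11, LIF, oncostatin M and IL-27, had normalized counts of 33513, 29406, 36268 and 29735 in the LN-LEC libraries, 23430.2, 25345 and 22064 in those of LN-BEC and 10562, 10719 and 12805 in those of D-LEC. The populations were ordered LN-LEC, LN-BEC, D-LEC without overlap, with log2 fold changes of 1.53 ± 0.11 (adjusted p = 8.73e-08), 0.46 ± 0.11 (adjusted p = 0.0034) and 1.06 ± 0.12 (adjusted p = 3.9e-06) in LN-LEC against D-LEC, LN-LEC against LN-BEC and LN-BEC against D-LEC. Lifr, the chain for leukemia inhibitory factor (LIF), had 29221, 30979, 27626 and 21406 in the LN-LEC libraries, 18031, 19041 and 14798 in those of LN-BEC and 1492, 1819.5 and 1890.5 in those of D-LEC. D-LEC fell far below both lymph node populations, and LN-LEC lay above LN-BEC. The log2 fold changes of Lifr were 3.996 ± 0.16 (adjusted p = 2.4e-10) in LN-LEC against D-LEC, 3.32 ± 0.16 (adjusted p = 1.07e-09) in LN-BEC against D-LEC and 0.67 ± 0.14 (adjusted p = 0.00135) in LN-LEC against LN-BEC. Il27ra, the private chain for IL-27, had 6552, 6402, 6349 and 5978 in the LN-LEC libraries, 2055, 2347 and 2200.4 in those of LN-BEC and 799.7, 720.4 and 729 in those of D-LEC. It too was ordered LN-LEC, LN-BEC, D-LEC without overlap. The log2 fold changes of Il27ra were 3.10 ± 0.088 (adjusted p = 1.52e-11) in LN-LEC against D-LEC and 1.54 ± 0.081 (adjusted p = 4.42e-09) in LN-LEC against LN-BEC. In LN-BEC against D-LEC it was 1.56 ± 0.086 (adjusted p = 4.01e-09).

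The chains for IL-6, IL-11 and oncostatin M were lower in LN-LEC than D-LEC. Il6ra, which binds IL-6, had 94.6, 96.5, 109 and 82.4 in the LN-LEC libraries, 137, 169.5 and 112 in those of LN-BEC and 679.8, 929.8 and 765 in those of D-LEC. The D-LEC libraries lay above every lymph node library, with log2 fold changes of -3.04 ± 0.17 (adjusted p = 5.05e-09) in LN-LEC against D-LEC and -2.50 ± 0.18 (adjusted p = 5.91e-08) in LN-BEC against D-LEC. For LN-LEC against LN-BEC the difference was -0.54 ± 0.17 log2 units (adjusted p = 0.0231), and the call was lost without LN-LEC library 4 (adjusted p = 0.0631) or LN-BEC library 2 (adjusted p = 0.139). It was also lost when only the 2 populations compared were fitted (adjusted p = 0.0615). Il11ra1, which binds IL-11, had 1851, 1521, 1541 and 1585 in the LN-LEC libraries, 2295, 2883 and 2409 in those of LN-BEC and 4203, 3163 and 3650.4 in those of D-LEC. The order was D-LEC, LN-BEC and LN-LEC without overlap, with -1.15 ± 0.11 log2 units (adjusted p = 1.62e-06) in LN-LEC against D-LEC, -0.62 ± 0.11 log2 units (adjusted p = 0.000514) in LN-LEC against LN-BEC and -0.53 ± 0.12 log2 units (adjusted p = 0.00252) in LN-BEC against D-LEC. Because 31.8% of the 100-base exon windows of Il11ra1 have a second copy, its counts miss part of its fragments in every library. Osmr, the chain for oncostatin M, had 6739, 6558, 6418 and 6875 in the LN-LEC libraries, 10246, 10469 and 10657 in those of LN-BEC and 10266, 8619.6 and 9763 in those of D-LEC. LN-BEC and D-LEC overlapped (0.14 ± 0.082, adjusted p = 0.189), and LN-LEC was lower than both, with log2 fold changes of -0.50 ± 0.077 (adjusted p = 0.000112) against D-LEC and -0.64 ± 0.077 (adjusted p = 1.31e-05) against LN-BEC. Il31ra, which joins Osmr in the IL-31 receptor, was highest in LN-BEC at 118, 75.2 and 46.2, with 29.4 to 36.8 in LN-LEC and 3.78 to 13.03 in D-LEC; the LN-LEC against LN-BEC difference was -1.28 ± 0.37 log2 units (adjusted p = 0.0148) and held in 17 of 18 alternative settings.

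The IL-1 receptor was most abundant in blood endothelium. Of 8 tested members of its family, 3 were higher and 0 lower in LN-LEC than D-LEC (background 24 and 21.7%), 2 were higher and 4 lower in LN-LEC than LN-BEC (background 19.8 and 18.4%), and 5 were higher and 0 lower in LN-BEC than D-LEC (background 25.6 and 22.4%). Il1r1, the signalling receptor for IL-1, had normalized counts of 3942, 3805, 2837 and 3021 in the LN-LEC libraries, 18265, 19002 and 15154 in those of LN-BEC and 803, 1065 and 918 in those of D-LEC. The order was LN-BEC, LN-LEC and D-LEC without overlap, with log2 fold changes of -2.35 ± 0.14 (adjusted p = 1.65e-08) in LN-LEC against LN-BEC, 1.89 ± 0.15 (adjusted p = 1.93e-07) in LN-LEC against D-LEC and 4.24 ± 0.17 (adjusted p = 2.34e-10) in LN-BEC against D-LEC. Il1rap, the accessory chain that IL-1, IL-33 and IL-36 receptors all need, had 281, 272, 190.0 and 272 in the LN-LEC libraries, 312, 229 and 201 in those of LN-BEC and 197, 210.4 and 324 in those of D-LEC, and the 3 populations overlapped. Its log2 fold changes were 0.074 ± 0.21 (adjusted p = 0.807), 0.053 ± 0.21 (adjusted p = 0.876) and 0.021 ± 0.23 (adjusted p = 0.952) in LN-LEC against D-LEC, LN-LEC against LN-BEC and LN-BEC against D-LEC. Per length, Il1r1 exceeded its partner by the most in LN-BEC, at 103 ± 19.96 FPKM against 0.868 ± 0.254 (SD, n = 3), and by the least in D-LEC, at 6.17 ± 0.763 against 0.963 ± 0.283 (SD, n = 3).

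Il1r1 is 1 of 6 members that lie side by side on chromosome 1 (mm9, chr1:40141613-40606142, all on the plus strand), in the order Il1r2, Il1r1, Il1rl2, Il1rl1, Il18r1 and Il18rap. Its neighbours were far less abundant in every library. Il18r1, the IL-18 receptor chain, had 109, 131 and 66.2 in LN-BEC, 5.18, 5.08, 12.4 and 11.9 in LN-LEC and 23.97, 16.03 and 9.92 in D-LEC. LN-BEC lay above both LEC populations, with -3.47 ± 0.42 log2 units (adjusted p = 1.51e-05) in LN-LEC against LN-BEC and 2.64 ± 0.44 log2 units (adjusted p = 0.000233) in LN-BEC against D-LEC, while the LEC populations overlapped (-0.83 ± 0.45 log2 units, adjusted p = 0.155). Its partner Il18rap had 35.01, 45.8 and 14.7 in LN-BEC, at most 1.27 in LN-LEC and no fragment in D-LEC, where a floor of 3 counts over the group makes LN-BEC at least 29.1-fold higher. Both were lowest in library 3 of the LN-BEC, as were the T cell marker sum of 294 given above and Il1r1. The share of counts taken by all members was lowest there too, at 0.360% against 0.449 and 0.479% in libraries 1 and 2. The part of lymphocytes in the levels of Il18r1 and Il18rap was not tested. Il1r2, the decoy receptor for IL-1, had 44.6, 36.3 and 34.7 in LN-BEC, 25.9, 15.2, 18.1 and 14.5 in LN-LEC and 3.78, 1.002 and 0 in D-LEC, and was higher in LN-LEC than D-LEC by 3.63 ± 0.69 log2 units (adjusted p = 0.000661). Il1rl2, the IL-36 receptor, did not pass 15.8 in any library. Il1rl1, the IL-33 receptor, had 11.7, 25.4, 33.9 and 36.5 in LN-LEC, 0, 4.32 and 4.201 in LN-BEC, and 0, 0 and 14.9 in D-LEC, where 1 library held all 18 fragments. It was higher in LN-LEC than LN-BEC by 3.24 ± 1.12 log2 units (adjusted p = 0.039), in 11 of 18 alternative settings. Elsewhere, Il1rapl1, a relative of Il1rap on chromosome X known from neurons, had 82.96, 90.1, 90.5 and 72.3 in LN-LEC and at most 3.15 in the other populations, with 5.21 ± 0.53 log2 units (adjusted p = 2.6e-06) against LN-BEC and 5.35 ± 0.54 log2 units (adjusted p = 2.25e-06) against D-LEC.

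**Figure D3:**
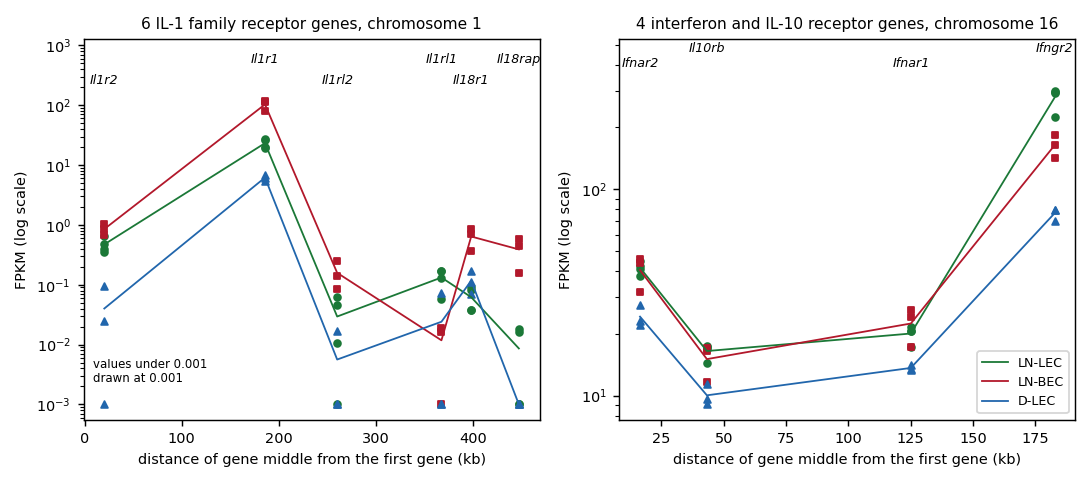
FPKM (log scale) of neighbouring receptor genes against the distance of each gene's middle from the start of the first gene, in kilobases; points are libraries, and lines join population means of LN-LEC (green), LN-BEC (red) and D-LEC (blue). Among 6 IL-1 family genes on chromosome 1, Il1r1 stands above its neighbours in all 3 populations, at 103 FPKM in LN-BEC, 23.2 in LN-LEC and 6.17 in D-LEC, while the 4 interferon and IL-10 receptor genes on chromosome 16 run from 10.03 FPKM for Il10rb in D-LEC to 279 for Ifngr2 in LN-LEC.

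Of the 5 IL-17 receptor chains, Il17ra, Il17rc and Il17rd had means of 1.22 to 12.3 FPKM in the 3 populations, and the shared chain was highest in D-LEC. Il17ra, the chain common to IL-17A, IL-17F, IL-17C and IL-25, had normalized counts of 622, 498, 479 and 509 in the LN-LEC libraries, 215, 182 and 171 in those of LN-BEC and 1729, 1246 and 1375 in those of D-LEC. The order was D-LEC, LN-LEC and LN-BEC without overlap, with log2 fold changes of -1.44 ± 0.13 (adjusted p = 6.55e-07) in LN-LEC against D-LEC, 1.49 ± 0.14 (adjusted p = 1.29e-06) in LN-LEC against LN-BEC and -2.92 ± 0.15 (adjusted p = 2.03e-09) in LN-BEC against D-LEC. Il17rc, its partner for IL-17A and IL-17F, had 385, 391, 432 and 377 in the LN-LEC libraries, 267, 291 and 289.9 in those of LN-BEC and 376, 274 and 281 in those of D-LEC. It was higher in LN-LEC than LN-BEC, by 0.50 ± 0.13 log2 units (adjusted p = 0.00619), and than D-LEC, by 0.38 ± 0.13 log2 units (adjusted p = 0.0264). The latter call was lost without LN-LEC library 3 (adjusted p = 0.0713), D-LEC library 2 (adjusted p = 0.117) or D-LEC library 3 (adjusted p = 0.108), and LN-BEC and D-LEC overlapped. Il17rd, which also restrains fibroblast growth factor signalling, had 376, 345, 369 and 524 in the LN-LEC libraries, 583, 551 and 498 in those of LN-BEC and 342, 244 and 311 in those of D-LEC. LN-BEC was above D-LEC by 0.87 ± 0.17 log2 units (adjusted p = 0.000697). The difference of 0.46 ± 0.16 log2 units (adjusted p = 0.0289) between LN-LEC and D-LEC was not called without LN-LEC library 4 (adjusted p = 0.087), D-LEC library 2 (adjusted p = 0.131) or D-LEC library 3 (adjusted p = 0.0527). Without LN-LEC library 4 and LN-BEC library 3 together it was not called either (adjusted p = 0.105). In LN-LEC against LN-BEC the log2 fold change of Il17rd was -0.41 ± 0.15 (adjusted p = 0.0506), which was not called, and the libraries overlapped. Without that pair of libraries Il17rd was called lower in LN-LEC than LN-BEC (log2 fold change -0.62 ± 0.15, adjusted p = 0.00449). Il17rb and Il17re, the private chains for IL-25 and IL-17C, stayed at or below 36.3 and 52.1 normalized counts, below 1 FPKM on average in each population, and their populations overlapped.

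The 4 chains of the interferon gamma and type I interferon receptors were abundant in all 3 populations and lowest in D-LEC. Of 10 tested members of the interferon and IL-10 families, 7 were higher and 2 lower in LN-LEC than D-LEC (background 24 and 21.7%), 1 was higher and 4 lower in LN-LEC than LN-BEC (background 19.8 and 18.4%), and 8 were higher and 1 lower in LN-BEC than D-LEC (background 25.6 and 22.4%). Ifngr1, which binds interferon gamma, had normalized counts of 6088, 5720.3, 6371 and 5730.1 in the LN-LEC libraries, 8589, 8274 and 8814 in those of LN-BEC and 4213, 4078 and 4264 in those of D-LEC, in the order LN-BEC, LN-LEC and D-LEC without overlap. The log2 fold changes of Ifngr1 were -0.50 ± 0.073 (adjusted p = 7.92e-05) in LN-LEC against LN-BEC, 0.54 ± 0.074 (adjusted p = 4.71e-05) in LN-LEC against D-LEC and 1.04 ± 0.079 (adjusted p = 1.12e-07) in LN-BEC against D-LEC. Ifngr2, its signalling partner, had 17631, 17532, 17531 and 14339 in the LN-LEC libraries, 10969, 12333 and 11039 in those of LN-BEC and 4859, 5022 and 4325 in those of D-LEC. It was ordered LN-LEC, LN-BEC, D-LEC, again without overlap, by 1.84 ± 0.10 log2 units (adjusted p = 5.41e-09), 0.57 ± 0.098 log2 units (adjusted p = 0.000358) and 1.28 ± 0.11 log2 units (adjusted p = 2.31e-07) in LN-LEC against D-LEC, LN-LEC against LN-BEC and LN-BEC against D-LEC. For type I interferons, Ifnar1 had 4202, 4119, 4278 and 3715 in the LN-LEC libraries, 5420.3, 5888 and 4513 in those of LN-BEC and 2914, 2831 and 2804 in those of D-LEC, and Ifnar2 had 3909, 3715, 4064 and 3729 in the LN-LEC libraries, 4534, 4698 and 3787 in those of LN-BEC and 2145, 2137 and 2579 in those of D-LEC. Both were lowest in D-LEC, by 0.54 ± 0.096 log2 units (adjusted p = 0.00039) and 0.77 ± 0.10 log2 units (adjusted p = 2.44e-05) in LN-LEC against D-LEC and by 0.89 ± 0.10 log2 units (adjusted p = 6.05e-06) and 0.93 ± 0.11 log2 units (adjusted p = 6.23e-06) in LN-BEC against D-LEC. The 2 lymph node populations overlapped for Ifnar2 (-0.16 ± 0.098, adjusted p = 0.237), and Ifnar1 was lower in LN-LEC, with a log2 fold change of -0.36 ± 0.094 (adjusted p = 0.0079), a call that was lost without LN-BEC library 2 (adjusted p = 0.0682).

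Ifnar2, Il10rb, Ifnar1 and Ifngr2 are neighbours on chromosome 16 (mm9, chr16:91373028-91564252, plus strand), and all 4 were lowest in D-LEC. Il10rb, which is shared by IL-10, IL-22 and interferon lambda, had 771, 918, 883 and 976 in the LN-LEC libraries, 1013, 987 and 806 in those of LN-BEC and 497, 542 and 622 in those of D-LEC, with 0.70 ± 0.12 log2 units (adjusted p = 0.000303) in LN-LEC against D-LEC and 0.76 ± 0.13 log2 units (adjusted p = 0.000223) in LN-BEC against D-LEC. LN-LEC and LN-BEC overlapped. The ligand-binding chains that pair with Il10rb were scarce. Il10ra, for IL-10, had 45.5, 46.7 and 28.4 in LN-BEC and at most 13.2 in LN-LEC and 7.01 in D-LEC; it was lower in LN-LEC than LN-BEC, with a log2 fold change of -1.92 ± 0.57 (adjusted p = 0.0166), in 16 of 18 alternative settings. Il10ra is best known from leukocytes. Of the 5 leukocyte markers, Ptprc, Rac2 and Laptm5 were called higher in LN-BEC than LN-LEC, Cd53 was called higher in LN-LEC and Coro1a was not called, and the part of leukocytes in this difference was not tested. Il28ra, for interferon lambda, had 30.6, 7.78 and 24.2 in LN-BEC, where library 2 overlapped with LN-LEC, and at most 11.3 elsewhere. Il22ra1, for IL-22, was found almost entirely in D-LEC, with 8, 10 and 23 fragments in its libraries, 3 in LN-LEC library 4 and none in the others. LN-BEC had no fragment, and with a floor of 3 counts over the group D-LEC was at least 16.8-fold higher than LN-BEC. Il22ra2, a soluble antagonist of IL-22, had at most 14.7 normalized counts. Il20rb, a chain for IL-19, IL-20 and IL-24, was lower in LN-LEC than in both other populations, with 144, 209, 137 and 184 in the LN-LEC libraries, 341, 401 and 299 in those of LN-BEC and 357, 263 and 342 in those of D-LEC. The log2 fold changes of Il20rb were -0.90 ± 0.18 (adjusted p = 0.000841) against D-LEC and -1.03 ± 0.18 (adjusted p = 0.000325) against LN-BEC. Il20ra, a chain that can pair with Il20rb, had no count.

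The receptors that define myeloid cells were low in all 3 populations. Csf1r, the CSF-1 receptor of macrophages, had 37.6, 33.01, 31.7 and 39.6 in LN-LEC, 10.5, 18.2 and 48.3 for LN-BEC and 71.9, 60.1 and 42.97 in D-LEC. The 7 macrophage and dendritic cell markers summed to between 942 and 1069.7, between 985 and 1054 and between 806 and 1194 normalized counts in the same order, and these ranges overlapped. In each population 4 of the 7 had a mean of at most 10, so that the sums rest on the remaining markers. Cd68 was called higher in D-LEC than LN-LEC, and Zbtb46 was called higher in both lymph node populations than D-LEC. Their part in the levels of Csf1r was not tested. LN-BEC against D-LEC gave -1.19 ± 0.46 log2 units (adjusted p = 0.0487) for Csf1r, a call held in 8 of 18 alternative settings. Csf3r, the G-CSF receptor of neutrophils, had 7, 6, 5 and 12 fragments in LN-LEC, 0, 5 and 2 in LN-BEC, and there were none in D-LEC, so that LN-LEC was at least 7.54-fold above the D-LEC floor of 3 counts over the group. Of the IL-12 and IL-23 receptor chains, Il12rb1 had 27.2, 27.9, 68.97 and 16.3 in LN-LEC, 13.1, 17.3 and 10.5 for LN-BEC and 0, 0 and 4.13 in D-LEC, and its 130 fragments in LN-LEC against 5 in D-LEC gave a ratio of CPM of 19.6 (95% counting interval 8.19 to 61.4). Il12rb2 stayed between 15.2 and 42.4 with overlap between LN-LEC and D-LEC, and Il23r had 4 fragments, all in LN-LEC.

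Subunits were then read together by complex. In LN-LEC 26 members reached a mean of 1 FPKM, in D-LEC 22 and in LN-BEC 23, and 17, 11 and 15 of them reached 10 FPKM. The FPKM of all members summed to 1551 ± 145 (SD, n = 4) over the LN-LEC libraries, 1191 ± 156 (SD, n = 3) over those of LN-BEC and 523 ± 27.5 (SD, n = 3) over those of D-LEC. Il2rg, Ifngr2 and Il6st led in LN-LEC, at 402, 279 and 203 FPKM. In LN-BEC Il2rg (206 ± 25.5) and Ifngr2 (164 ± 21.2) came first, and Csf2rb (129 ± 19.1), Il6st (128 ± 18.5), Ifngr1 (120.2 ± 7.51) and Il1r1 (103 ± 19.96) followed within 1 SD of their neighbours (SD, n = 3). In D-LEC Ifngr2 (76.6 ± 5.18), Il6st (69.9 ± 8.26), Ifngr1 (66.8 ± 2.696), Osmr (66.2 ± 6.99) and Il11ra1 (62.8 ± 9.89) lay close together, and Il2rg (46.5 ± 5.94) stood lower (SD, n = 3).

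Of 33 complexes for which the chains were listed, 12 had every chain at 1 FPKM or more in all LN-LEC libraries, 11 in all LN-BEC libraries and 10 in all D-LEC libraries. The complexes for interferon gamma, type I interferon, LIF, oncostatin M, IL-11, IL-27, IL-17A and IL-17F, and both IL-4 receptors met this in all 3 populations. The IL-21 complex met it in LN-LEC only, with Il21r at 2.47 ± 0.452 FPKM for LN-LEC (SD, n = 4) and 0.149 ± 0.0706 for LN-BEC (SD, n = 3). The IL-3 and GM-CSF complexes met it in LN-LEC and LN-BEC and not in D-LEC, where Csf2rb was the limiting chain. The IL-6 complex met it in D-LEC only, with Il6ra at 7.92 ± 1.12 FPKM (SD, n = 3); in LN-BEC the mean of Il6ra was 1.24 ± 0.338 (SD, n = 3), and in LN-LEC it was 0.984 ± 0.142 (SD, n = 4), with libraries on both sides of 1 FPKM. The IL-1 complex was limited by Il1rap in all 3 populations, at 1.02, 0.868 and 0.963 FPKM for LN-LEC, for LN-BEC and for D-LEC. The IL-2 complex fell short in both Il2ra, with means of 0.0351, 0.351 and 0.00705 FPKM for LN-LEC, for LN-BEC and for D-LEC, and Il2rb, with a mean of at most 0.0976 FPKM. The IL-15 complex fell short in Il2rb, while Il2rg and Il15ra exceeded 1 FPKM in every library. A complex counted here is RNA for its chains, and surface protein was not measured.

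**Figure D4:**
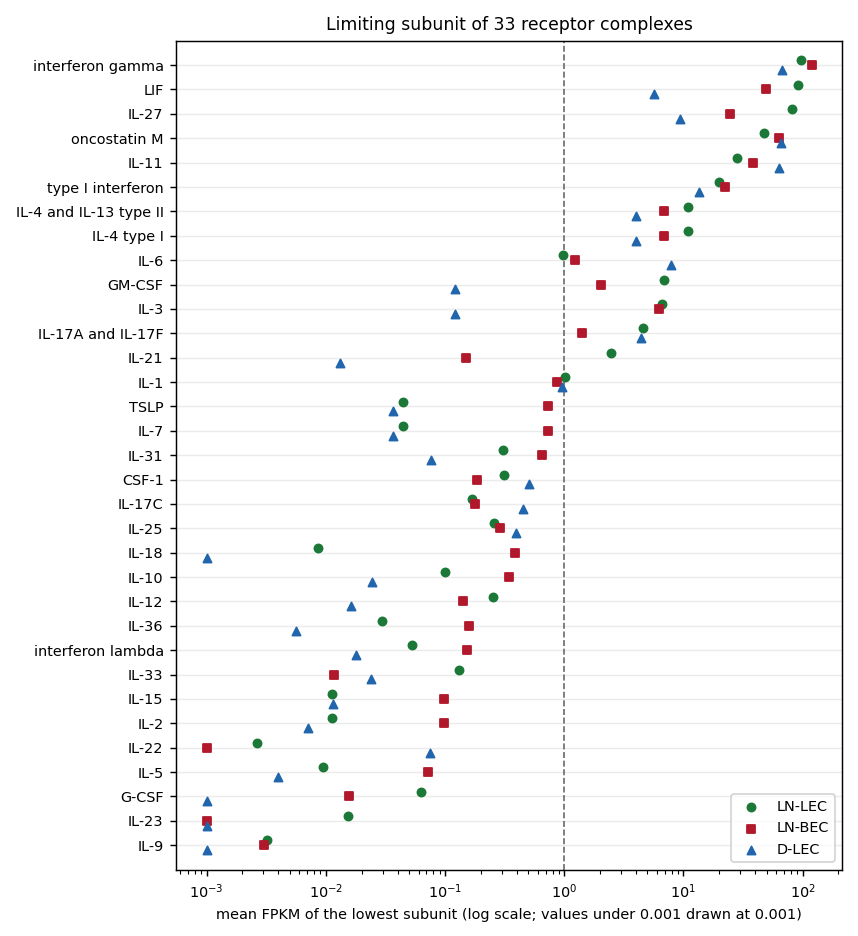
Mean FPKM (log scale) of the least abundant chain of each of 33 receptor complexes in LN-LEC (circles), LN-BEC (squares) and D-LEC (triangles), sorted by the highest of the 3 values; the dashed line marks 1 FPKM. The GM-CSF and IL-3 complexes drop to 0.121 FPKM in D-LEC, the IL-21 complex is above the line in LN-LEC at 2.47 FPKM, and the IL-6 complex is highest in D-LEC, at 7.92 FPKM.

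Genes that act downstream of these receptors were counted from lists of the pathway. Among 12 Janus kinases, STATs and Irf9, 7 were higher and 1 lower in LN-LEC than D-LEC, 3 were higher and 2 lower in LN-LEC than LN-BEC, and 7 were higher and 2 lower in LN-BEC than D-LEC, against the same backgrounds as above, which hold for the other lists of genes as well. Jak1, the kinase used by gamma chain, gp130 and interferon receptors, had 44052, 42128, 45255 and 42516 normalized counts in LN-LEC, 14438, 15956 and 15615 for LN-BEC and 7512, 7470.4 and 7907 in D-LEC, without overlap. Its log2 fold changes were 2.53 ± 0.087 (adjusted p = 6.05e-11) in LN-LEC against D-LEC and 1.52 ± 0.083 (adjusted p = 6.49e-09) in LN-LEC against LN-BEC. Jak3, which binds the common gamma chain, was higher in LN-LEC than D-LEC by 0.65 ± 0.10 log2 units (adjusted p = 0.000172). Stat5a, used by gamma chain and beta chain receptors, was higher in LN-LEC than D-LEC by 1.48 ± 0.10 log2 units (adjusted p = 6.03e-08). Stat3, the mediator of gp130, had means of 5437 ± 112 (SD, n = 4), 5211 ± 389 (SD, n = 3) and 5084 ± 409 (SD, n = 3) for LN-LEC, for LN-BEC and for D-LEC and was called in no comparison. Jak3 and Stat3, and Socs3 in the next list, were singled out for their roles after their values were seen.

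Of 18 inhibitors of this pathway, 6 were higher and 5 lower in LN-LEC than D-LEC, and 4 were higher and 1 lower in LN-LEC than LN-BEC. In LN-BEC against D-LEC the counts were 6 and 5 as well. Socs1, an inhibitor induced by interferon, had means of 548 ± 88.3 (SD, n = 4) in LN-LEC, 196 ± 16.7 (SD, n = 3) for LN-BEC and 49.2 ± 3.96 (SD, n = 3) in D-LEC, with 3.49 ± 0.17 log2 units (adjusted p = 1.81e-09) in LN-LEC against D-LEC. Socs2 was higher in LN-LEC than D-LEC by 1.997 ± 0.093 log2 units (adjusted p = 9.36e-10) and Ptpn6, a phosphatase that is best known from blood cells, by 3.58 ± 0.41 log2 units (adjusted p = 7.65e-06). Socs3, the inhibitor of gp130, was lower in LN-LEC than D-LEC, with -1.07 ± 0.27 log2 units (adjusted p = 0.00893). Of 13 adaptors of the IL-1, IL-18 and IL-17 receptors, 4 were higher and 3 lower in LN-LEC than D-LEC, 2 were higher and 2 lower in LN-LEC than LN-BEC, and 6 were higher and 0 lower in LN-BEC than D-LEC. The greatest difference was that of Sigirr, a brake on IL-1 receptor signalling, which like Il1r1 was highest in LN-BEC, with -1.15 ± 0.11 log2 units (adjusted p = 1.02e-06) in LN-LEC against LN-BEC. Of 9 other class I cytokine receptors, 2 were higher and 2 lower in LN-LEC than D-LEC, 3 higher and 1 lower in LN-LEC than LN-BEC, and 1 higher and 3 lower in LN-BEC than D-LEC. Among them Epor, the erythropoietin receptor, was higher in LN-LEC than LN-BEC by 2.82 ± 0.24 log2 units (adjusted p = 2.36e-06) and Lepr, the leptin receptor, by 1.56 ± 0.15 log2 units (adjusted p = 1.6e-06).

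Some populations also expressed ligands of the members. Of 54 ligands and antagonists in the table, 34 were tested, of which 9 were higher and 4 lower in LN-LEC than D-LEC, 8 higher and 3 lower in LN-LEC than LN-BEC, and 8 higher and 7 lower in LN-BEC than D-LEC. Csf1 had 25191, 22712, 27349 and 22326 normalized counts in LN-LEC, 1568, 1333 and 2359 for LN-BEC and 909, 734 and 763 in D-LEC (4.95 ± 0.21 log2 units, adjusted p = 1.83e-09 for LN-LEC against D-LEC), while its receptor Csf1r did not pass 71.9 in any library. Il7, a survival factor of lymphocytes, had 4194, 4534 and 5472 in D-LEC, 1079.8, 1117, 1082 and 1423 in LN-LEC and 185, 105 and 209 in LN-BEC. It was lowest in LN-BEC, where Il7r was highest, with -4.83 ± 0.24 log2 units (adjusted p = 2.02e-08) for Il7 in LN-BEC against D-LEC. Il33 had 22648, 19109.6, 22837 and 14445 in LN-LEC, 787, 245 and 1145 for LN-BEC and 1307, 2331 and 3226 in D-LEC, and its receptor Il1rl1 stayed at or below 36.5. The difference for Il33 was 4.79 ± 0.62 log2 units (adjusted p = 0.000445) in LN-LEC against LN-BEC.

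The LN-BEC libraries held a small level of LEC markers, and the members highest in LN-LEC were set beside it. As a percent of the LN-LEC mean, Prox1 stood at 2.57, 1.42 and 4.31% in LN-BEC libraries 1, 2 and 3, Pdpn at 2.72, 0.9495 and 6.23%, Lyve1 at 1.45, 1.06 and 5.89%, Reln at 1.42, 0.942 and 5.23% and Flt4 at 14.6, 11.9 and 16.6%. Each of the 5 was lowest in library 2 and highest in library 3, and Flt4 was the highest of them in each library. Il13ra2, at 3.87, 1.65 and 4.96%, and Il1rapl1, at 3.13, 1.03 and 3.75%, were at or below the highest marker in each library and had the same order of libraries. In library 1 both lay above the markers other than Flt4, as did Il13ra2 in library 2. Il21r, at 6.99, 9.67 and 3.92%, was also below the highest marker in each library, but was lowest in library 3. It lay above Lyve1, Pdpn, Prox1 and Reln in libraries 1 and 2 and below them in library 3. Il1rl1, at 0, 16.1 and 15.6%, was below the highest marker in libraries 1 and 3 and above it in library 2. The part of LEC RNA in the LN-BEC levels of these 4 genes was not tested. Csf2ra, Il27ra, Il17ra, Il2rg, Lifr, Ifngr2, Il17rc, Il6st, Il4ra and Il15ra, the other members called higher in LN-LEC, stood between 32.5 and 91.3% in each LN-BEC library, above all 5 markers. Without LN-BEC library 3, 31 members were called in LN-LEC against LN-BEC and 38 in LN-BEC against D-LEC. In D-LEC, 5 skeletal muscle markers summed to between 888 and 1225 normalized counts, against at most 101 in the lymph node populations, and their part in the D-LEC levels of Il6ra, Il11ra1, Il17ra and Il22ra1 was not tested. Markers of fibroblastic reticular cells and pericytes summed to between 3193 and 5689 in LN-LEC, between 4810.1 and 6166 for LN-BEC and between 324 and 1203 in D-LEC, and their part in the lymph node levels of the members was not tested.

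**Figure D5:**
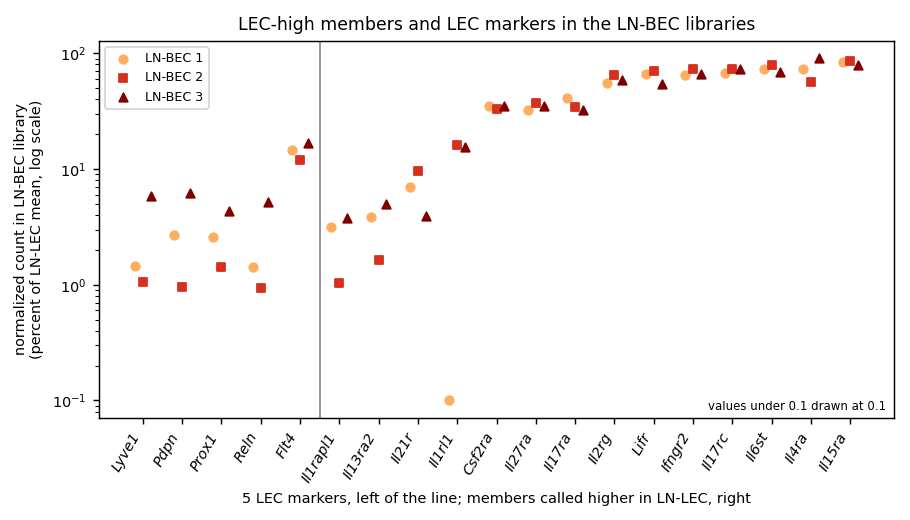
Normalized count in each LN-BEC library as a percent of the LN-LEC mean (log scale), for 5 LEC markers, left of the line, and the 14 members called higher in LN-LEC than LN-BEC, right of it. Il1rapl1, Il13ra2 and Il21r lie at 1.03 to 9.67%, at or below the highest marker of each library, and Il1rl1 at 0, 16.1 and 15.6%, while the 10 members from Csf2ra to Il15ra lie between 32.5 and 91.3%.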

How the data were processed

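RNA of sorted cells was amplified (Ovation RNA-Seq V2) and sequenced as paired reads on an Illumina HiSeq. The authors trimmed reads, used STAR for alignment to mm9 and obtained fragment numbers per gene from featureCounts (version 1.4.4 in the file header), without strand and without multi-mapping or multi-gene pairs. The deposited table holds raw counts of all 10 libraries, 22429940 to 48906070 per library. Rows of unnamed predicted transcripts (3757) were left out of the tests, as were genes whose mean normalized count stayed under 1 in every population, leaving 15371 genes. The edgeR quasi-likelihood test (edgeR 4.0.16, R 4.3.3, TMM scaling, robust, 1 mean per population, all 10 libraries) was used with Benjamini-Hochberg adjustment and a threshold of 0.05, and with the 5-fold criterion of the study. Normalized counts were scaled by the size factors of DESeq2 1.42.0. FPKM instead divides raw counts by the library total and by exon length, without these size factors. The order of populations can therefore differ between them. Ifnar2 had means of 3854 and 4340 normalized counts in LN-LEC and LN-BEC, but 41.7 and 40.6 FPKM. Where a population had few or no counts, ratios carry exact 95% counting intervals or a floor of 3 counts.

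Libraries were grouped by their labels, which give no batch, day or pairing, and numbered in accession order. No 2 libraries of a population agreed within sampling noise (chi-square per gene of 10.8 to 405 over 12 pairs). Nothing beyond the labels' pools of mice states separate preparations, so p-values measure the spread between these pools. Values in every library are given for members called in at least 1 comparison with a mean of at least 100 normalized counts in at least 1 population (26 members), and of each pathway list for up to 3 called genes with the largest log2 fold change. A gene that this rule names is not reported here. The members and lists were chosen with earlier results of these data known. On simulated counts for 15371 genes, the LN-LEC against D-LEC fit recovered 75% of genes changed 2-fold and 97% of genes changed 8-fold, LN-LEC against LN-BEC 71% and 96%, and LN-BEC against D-LEC 65% and 97%. The false share among calls was 4.44%, 6.18% and 1.82%. Changed genes were drawn only from those above a minimum mean count, and all others were left unchanged. These rates therefore do not cover the scarcest members. Each simulation changed 200 genes, whereas 38.2 to 48% of the genes tested were called in the data. The false share is therefore not an error rate of the calls reported here. The alternatives tried were RLE scaling, DESeq2's Wald test, no robust step, other filters on low counts, all rows of the table, only the 2 populations compared, and leaving out libraries, singly and LN-LEC 4 with LN-BEC 3, the pair that stood apart.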

Additional observations from a re-analysis of the deposited data

Results flagged for a closer look

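Ifngr2 in LN-LEC library 4, at 14339 normalized counts, stood apart from the other 3 LN-LEC libraries, which lay between 17531 and 17631. Its gap took 0.970 of the group's range, above Dixon's critical value for 4 libraries. It was the only one among the 26 members tested in this way, and chance marks about 1 in 20 groups. Without this library the log2 fold change of Ifngr2 was 1.91 in place of 1.84 against D-LEC and 0.63 in place of 0.57 against LN-BEC.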

How the results depend on the processing

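No paired analysis was possible because the labels give no replicate numbers. The number of members called was 30 to 33 in LN-LEC against D-LEC, 25 to 32 in LN-LEC against LN-BEC and 35 to 38 in LN-BEC against D-LEC when each library was left out in turn, and 32 to 33, 29 to 32 and 34 to 38 in the other settings. The count of members at least 5-fold higher in LN-BEC than LN-LEC, 8, was 5 with edgeR's filterByExpr, which tests fewer genes, and 5 to 8 when each library was left out. Of 78 differences of the 26 members described by library, 67 kept their direction and their side of the threshold in all 18 settings. The direction turned in 4 that were not called: on leaving out each library, the log2 fold change of Il3ra in LN-LEC against LN-BEC ran from -0.21 to 0.054 and that of Il10rb from -0.17 to 0.0020, and in LN-BEC against D-LEC that of Il17rc ran from -0.20 to 0.025 and that of Il20rb from -0.0010 to 0.23. The other 7 crossed the threshold in at least 1 setting, of which 6 are given with the results, and Il17rd in LN-LEC against LN-BEC, not called, was called in 9 of 18 settings. The cause was not tested. Complete complexes at 0.5 FPKM numbered 14 for LN-LEC, 13 for LN-BEC and 11 for D-LEC, and at 3 FPKM 11, 9 and 10. Scaling moved the median of all genes by under 0.1 (log2). Members at a few counts are limited by depth.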
